A study of Panicum virgatum with 8 samples.

Results

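The miR160 and miR167 families of switchgrass (Panicum virgatum AP13, a tetraploid grass whose chromosomes come as K and N copies) are described here from pooled small RNA libraries. Members were the loci in the deposited table of predicted precursors whose miRNA was listed at least as abundant as its miRNA* and carried a miR160 or miR167 name. This gave 30 of the 210 loci, 10 of miR160 and 20 of miR167, with 4 of the 59 miRNA sequences. The paper's final set of conserved switchgrass miRNAs and precursors is smaller than this listing, so a locus counted here need not be in it. RNA came from greenhouse plants of the single strain AP13, with 1 library for each of 8 conditions. The stress libraries were from plants held at 4 °C for 24 h and their control, plants sampled 11 days after watering stopped and their control, and plants watered again and sampled on day 12. The others were leaf, stem and panicle. The 5 libraries of the stress experiments are labelled above-ground tissue, whereas the design text of the series names upper leaf blades for them. The table holds no library column, and each of the 21 miRNA and miRNA* sequences of the families has a single value wherever it recurs. The 8 libraries were therefore taken as pooled, conditions could not be compared, and no value below has a replicate error. The unit of the abundances is not named and the depth behind a value is unknown, so these are treated as scores. Loci of a family share their miRNA and are not replicates, so every comparison is a description without a test.

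A miRNA is cut from a hairpin transcript as a duplex with its miRNA*, the strand paired with it, and guides an Argonaute protein to complementary mRNAs. In Arabidopsis, miR160 targets mRNAs of auxin response factors (ARFs) of the ARF10, ARF16 and ARF17 group, which repress auxin-responsive genes. The Arabidopsis miR167 targets ARF6 and ARF8, activators that act in flower and root development. The targets in switchgrass were not analysed here.

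The mature sequences are shown first because they define the families and the isomiRs of miR167, that is, the forms that differ only at the 3′ end. Letters are those of the deposited table (T for U), read 5′ to 3′, and capitals mark the seed, bases 2 to 8.
ata-miR160c-5p: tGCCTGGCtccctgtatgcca
ata-miR167d-5p: tGAAGCTGccagcatgatctga
atr-miR167: tGAAGCTGccagcatgatctg
ata-miR167e-5p: tGAAGCTGccagcatgatcta
The names are those of matched entries from Aegilops tauschii (ata) and Amborella trichopoda (atr). Only the first word of each listed name was used, so a name does not mark a match to that species alone. The miR160 family was a single sequence of 21 nt, and its seed was found in no other listed miRNA. The 3 miR167 sequences shared their first 20 bases and 1 seed, which no other family had. Removing the last base of ata-miR167d-5p gives atr-miR167, while ata-miR167e-5p differs from ata-miR167d-5p by G21A (counted from the 5′ end) and by its length of 21 against 22 nt. The miR160 and miR167 sequences themselves shared 2 bases at the 5′ end, and differed at 15 or 16 positions when aligned from that end. GC content was 61.9% in ata-miR160c-5p, 50.0% in ata-miR167d-5p, 52.4% in atr-miR167 and 47.6% in ata-miR167e-5p.

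The families were far apart in pooled abundance. The listed abundance of ata-miR160c-5p was 117. For miR167 it was 4837 for ata-miR167d-5p, 575 for atr-miR167 and 23 for ata-miR167e-5p, which sum to 5435. The miR167 sum was thus 46.5 times that of miR160, although miR167 had only 2 times as many loci. Within miR167, ata-miR167d-5p made up 89.0%, atr-miR167 10.6% and ata-miR167e-5p 0.423%. The number of loci did not follow this order, because ata-miR167e-5p was listed at 8 loci, ata-miR167d-5p at 11 and atr-miR167 at 1. Because atr-miR167 is contained in ata-miR167d-5p, its sequence also matches the 11 loci of the latter, and the table does not divide its abundance between them and its own locus.

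Among the 29 families in the table, miR167 stood in place 6 by summed abundance (1.93% of the total) and miR160 in place 21 (0.0416%). The median family had an abundance of 596. The families next above miR167 were miR5168 at 5562 and miR396 at 5551, and those next below were miR159 at 5182 and miR156 at 3469. Next above miR160 were miR390 at 121 and miR398 at 120, and next below were miR528 at 77 and miR169 at 66. By number of loci miR167 stood in place 3 and miR160 in place 7, with a median of 4 loci per family. Among other families with roles in auxin response, miR164, which targets NAC factors, had 1826 from 8 loci. The family miR393, which targets the TIR1/AFB auxin receptors, had 308 from 4 loci. For miR390, which triggers small RNAs that act on ARF mRNAs through TAS3, the value was 121 from 5 loci. In this list miR167 was thus the highest and miR160 the lowest by summed abundance.

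**Figure D1:**
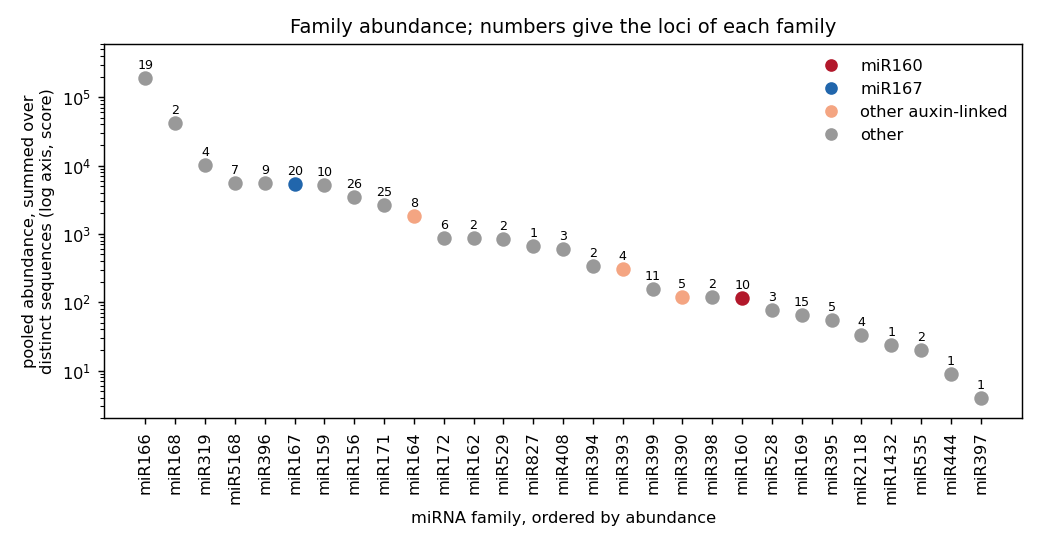
Pooled abundance summed over distinct sequences (score, log axis) for the 29 families, with the number of loci above each point. The miR167 point lies at 5435 with 20 loci and the miR160 point at 117 with 10 loci.

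Although all 10 miR160 loci carried the same miRNA, they had 7 different miRNA* strands. They are printed to show where the precursors differ, with capitals at the positions that vary within their first 21 bases.
Chr04K and Chr04N: gcGtgcAAggAgccaagcatg
Chr02K and Chr02N: gcGtgcGAggTgccaagcatg
Chr01K: gcAtgcAAggGgccaagcatg
Chr01N: gcGtgcAAggGgccaagcatg
Chr06K and Chr06N: gcGtgcACggTgccaagcatg
Chr06N (from 50950119): gcGtgcGAggAgccaagcatg
Chr09N: gcGtgcGAggAgccaagcatgacca
Of 21 positions compared, 17 were identical and 4 varied (positions 3, 7, 8 and 11 from the 5′ end of the miRNA*). The pair on Chr04K and Chr04N, named ata-miR160c-3p and listed at 4, served as the reference. The strand of Chr02K and Chr02N, named osa-miR160e-3p and listed at 3, carries A7G and A11T. The other 5 strands have no name and are listed at 0, with G3A and A11G on Chr01K, A11G alone on Chr01N, A8C and A11T on Chr06K and its partner on Chr06N, and A7G alone at the remaining Chr06N locus and on Chr09N. The Chr09N strand is the first 21 bases of that Chr06N strand followed by 4 more bases. One of the unnamed strands, at Chr06N from 50950119, has the sequence given for Brachypodium miR160a-3p in the miRNA set that the study used for target prediction.

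The miR167 loci had 10 different miRNA* strands. These are shown because they separate the loci that the miRNA itself cannot, and capitals mark bases inside the duplex that were left without a partner in the prediction described below.
ata-miR167d-5p, Chr03K and Chr03N: aggtcatgctgtagtttcatc
ata-miR167d-5p, Chr01K (both loci) and Chr01N: agatcatgttgcagcttcact
ata-miR167d-5p, Chr05N (both loci): agatcTtgctgCgcagtttcacc
ata-miR167d-5p, Chr05K: agatcTtgctgTgcagtttcacc
ata-miR167d-5p, Chr09K: agatcatctAgcagtttcatt
ata-miR167d-5p, Chr02K and Chr02N: agatcatgctTTgcagtttcatctgc
ata-miR167e-5p, Chr01N, Chr05K and scaffold_22: ggtcatgctGCggcagcCtcact
ata-miR167e-5p, Chr03K and Chr03N: gatcatgcAtgAcagcCtcatt
ata-miR167e-5p, Chr09N (both loci) and scaffold_20695: gatcatgctgTgAcagtttcact
atr-miR167, Chr04N: gatcatgttgtagcttcacc
Their lengths ran from 20 to 26 nt, against 21 or 25 nt in miR160. The Chr05K and Chr05N strands of ata-miR167d-5p differed only by T12C. Every miR160 miRNA* began with G, whereas 6 of the 10 miR167 strands began with A and 4 with G. The 6 were those of ata-miR167d-5p (22 nt), and the 4 those of ata-miR167e-5p and atr-miR167 (21 nt each). Within miR167 the first base of the miRNA* thus went with the length of the miRNA. All 4 miRNAs began with T.

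Of the miR167 strands, 3 had a name and an abundance of at least 1. The strand of ata-miR167d-5p on Chr03K and Chr03N (osa-miR167h-3p) was listed at 70, the highest miRNA* value in either family. Its strand on chromosome 1 (osa-miR167i-3p) was listed at 1, as was the ata-miR167e-5p strand ata-miR167e-3p. The remaining 7 strands, that of atr-miR167 included, were listed at 0. The miRNA to miRNA* ratio was 29.2 for ata-miR160c-5p with ata-miR160c-3p and 39.0 with osa-miR160e-3p. For ata-miR167d-5p it was 69.1 with osa-miR167h-3p and 4837 with osa-miR167i-3p, and for ata-miR167e-5p it was 23.0. The miRNA value is shared by all loci of a sequence, so these ratios are not those of single hairpins. A miRNA* of at least 1 was listed at 4 of 10 miR160 loci and 8 of 20 miR167 loci (40.0% each), against 43.8% of all 210 loci. Among all structures, 0 had a miRNA* value of at least 1 without a miRNA* name and 0 had a name with the value 0. A value of 0 and the lack of a name thus always went together, and 0 is given here only as listed.

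**Figure D2:**
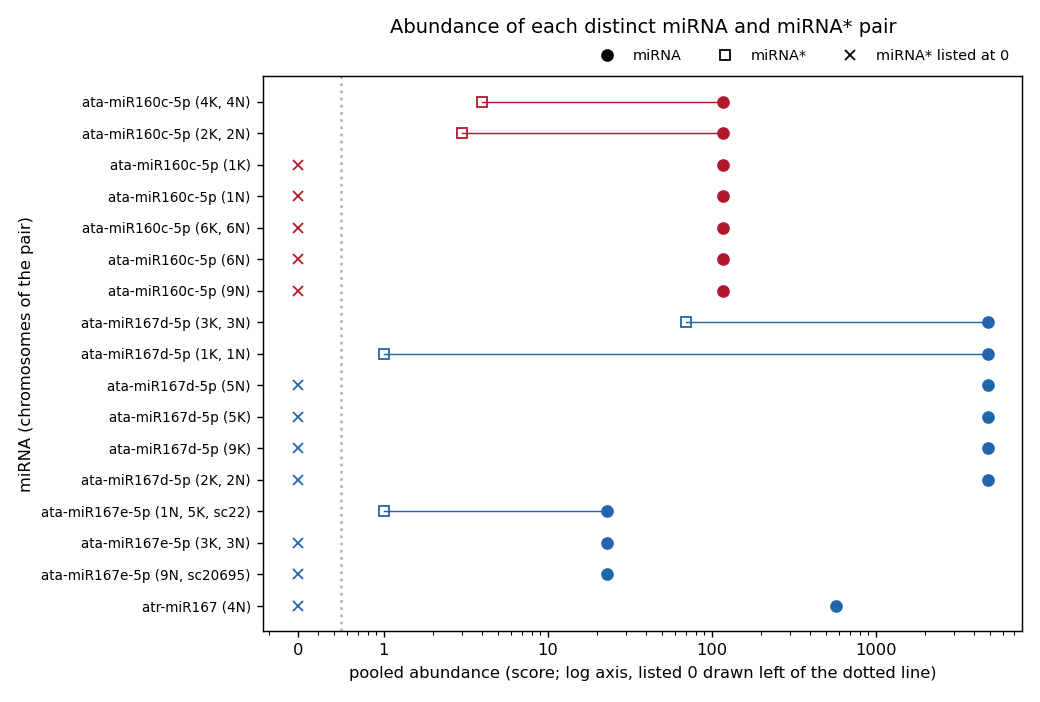
Pooled abundance (score, log axis) of the miRNA (filled circle) and miRNA* (open square) in each of the 17 distinct pairs, with crosses for a miRNA* listed at 0, which are drawn left of the dotted line. The miRNA* values run from 1 to 70 in 5 pairs and are 0 in the other 12.

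To compare the duplexes, each miRNA was paired with its miRNA* in silico with RNAduplex energy parameters, apart from the authors' own hairpin folds. The miR160 duplexes shared 1 layout. Bases 4 and 12 of the miRNA were unpaired in 7 of 7 pairs and base 9 in 2 of 7. The miRNA ended in a 2-nt 3′ overhang in all 7, as it did in all 10 pairs of miR167. The miR160 pairs share 1 miRNA and 17 of the first 21 miRNA* bases, so they are not separate observations. In the 10 miR167 pairs the unpaired miRNA bases were spread over positions 4, 9, 10, 13 and 15, the most frequent being base 9 in 4 pairs. Among 101 pairs of the other families, which unlike the member pairs were restricted to the limits on length, mismatches and bulges given in the study's methods, base 4 was unpaired in 5 (4.95%), base 12 in 19 (18.8%) and both in 4. With the same restriction 6 miR160 and 9 miR167 pairs remained, and bases 4 and 12 were unpaired in all 6 of miR160. The number of paired bases was 16 or 17 in miR160 (median 17), 17 to 19 in miR167 (median 19) and 17 at the median of the other families. G:U pairs numbered 2 or 3 in miR160 (median 3), against 0 to 3 in miR167 (median 1) and a median of 1 in the other families. Despite these differences, the median duplex energy was -27.6 kcal/mol in both miR160 (-28.3 to -23.2) and miR167 (-29.3 to -22.6), beside -27.8 kcal/mol for the other families.

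The 4 variable positions of the miR160 miRNA* were followed through the duplex. Position 3 lay opposite miRNA base 17, position 7 opposite base 13 and position 11 opposite base 9, while position 8 lay opposite the unpaired base 12. The change G3A on Chr01K replaced a G:U pair by a Watson-Crick pair, and A7G did the reverse in 3 strands. At position 11, A11G kept the pair as G:U, whereas A11T left miRNA base 9 unpaired. The strands with A11T, on the copies of chromosome 2 and on Chr06K and its Chr06N partner, had the weakest duplexes of the family, at -23.2 and -23.9 kcal/mol, against -28.3 to -27.4 kcal/mol for the other 5. In miR167 the weakest duplexes were those of ata-miR167e-5p on Chr03K and Chr03N at -22.6 kcal/mol, with 2 unpaired miRNA bases and 3 unpaired miRNA* bases, and of ata-miR167d-5p on Chr09K at -23.0 kcal/mol. The most stable was that of ata-miR167d-5p with osa-miR167i-3p on chromosome 1, at -29.3 kcal/mol.

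**Figure D3:**
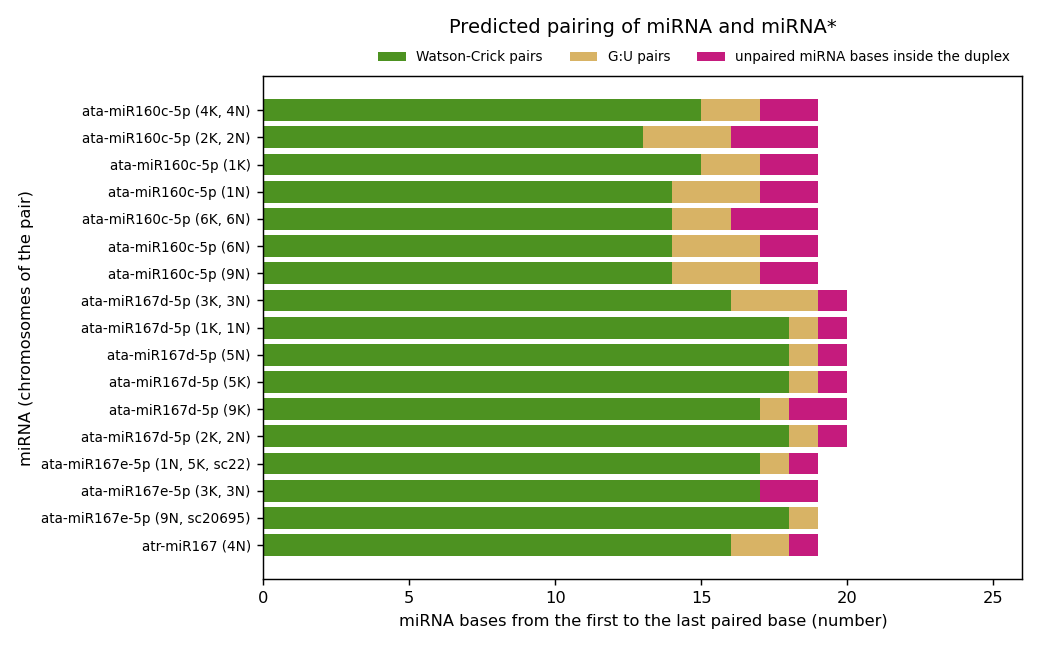
Number of miRNA bases in Watson-Crick pairs, in G:U pairs and unpaired, from the first to the last paired base, in each of the 17 distinct pairs. The miR160 bars hold 2 or 3 unpaired bases each, and the miR167 bars hold 0 to 2.

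In the authors' own counts, the miRNA:miRNA* pairing of miR160 had 2 mismatch positions at 5 loci, 3 at 4 loci and 6 at 1 locus, and 9 of 10 loci had no nucleotide in an asymmetric bulge. For miR167 there was 1 mismatch position at 2 loci, 2 at 4, 3 at 12 and 6 at 2. Every miR167 locus had bulged nucleotides, 1 nt at 12 loci, 2 nt at 6 and 3 nt at 2. Of all 210 loci, members included, 107 had no bulged nucleotide, 67 had 1 nt and 16 had 2 nt. Mismatch positions numbered 2 at 63 of the 210 loci and 3 at 62. The member loci of 6 mismatch positions were those on Chr09N for miR160 and on Chr02K and Chr02N for miR167. Their miRNA* strands were listed at 25 and 26 nt. These 3 loci lay outside the limits given in the study's methods, so 9 miR160 and 18 miR167 loci were within them. Of all 210 loci, 185 were. Being within these limits does not place a locus in the study's final, smaller set. In the duplex prediction, the 25-nt strand had the same 17 pairs as the 21-nt Chr06N strand and a longer 3′ overhang of 6 nt. The authors called 9 miR160 loci miRNA candidate and 1 miRNA-like. For miR167 the calls were 12 and 8, and 6 of the 8 were loci of ata-miR167e-5p, each with a bulge of 2 nt. Of all 210 loci, 159 were called miRNA candidate, 34 miRNA-like and 17 bad seq (the authors' term).

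The miRNA lay on the 5′ arm at all 30 loci, beside 114 of 210 loci in the table. The arms of miR167 hairpins were farther apart. From the first base of the miRNA to the last base of the miRNA*, the median was 89 nt in miR160 (84 to 126 nt) and 121.5 nt in miR167 (93 to 240 nt), beside 102 nt for all loci, and the ranges overlapped. The longest were the ata-miR167d-5p hairpins on chromosome 1, at 240 and 212 nt on Chr01K and 226 nt on Chr01N. The other 8 ata-miR167d-5p loci and the ata-miR167e-5p loci ran from 94 to 137 nt. Precursors as listed, with their flanks, were 102 to 157 nt in miR160 (median 131 nt) and 112 to 290 nt in miR167 (median 146 nt).

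Predicted hairpin free energies were -85.2 to -51.6 kcal/mol in miR160, and the median was -61.2 kcal/mol. In miR167 they were -114 to -47.8 kcal/mol and their median was -74.2 kcal/mol, and the median of all loci was -68.8 kcal/mol. The miR167 sequences differed, with medians of -61.3 kcal/mol for ata-miR167d-5p, near that of miR160, and -79.1 kcal/mol for ata-miR167e-5p. The single atr-miR167 locus had -60.7 kcal/mol. Divided by hairpin length, the order of the families was turned, with a median of -0.557 kcal/mol per nt in miR160 and -0.489 kcal/mol per nt in miR167, beside -0.534 kcal/mol per nt for all loci. Only ata-miR167d-5p was turned in this way, at -0.441, since ata-miR167e-5p had -0.570 and atr-miR167 -0.562 kcal/mol per nt. The hairpin length can differ between alike precursors. Those of miR160 on Chr04K and Chr04N, both of 134 nt, had 126 and 94 nt, or -0.501 and -0.665 kcal/mol per nt. Loci with a miRNA* of at least 1 had lower energies, with medians of -70.4 against -57.6 kcal/mol in miR160 and -84.1 against -61.0 kcal/mol in miR167. The folded stretch differed between these loci, however. The miRNA began at base 25 or 27 of the precursor at 11 of the 12 loci with a miRNA* of at least 1, and at base 10 or 12 at all 18 loci with a miRNA* at 0. Over the whole table, the strand on the 5′ arm, whether miRNA or miRNA*, began at base 25 or 27 at 86 of 92 loci with a miRNA* of at least 1 and at 1 of 118 loci with a miRNA* at 0. The exception among the members was scaffold_22. It has the same pair and the same 102 nt between outer ends as the ata-miR167e-5p loci on Chr01N and Chr05K, but its miRNA begins at base 10, and its energy was -71.9 kcal/mol against -82.9 and -82.8 kcal/mol. The part of the flanks in these energy differences, that of scaffold_22 included, was not tested.

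**Figure D4:**
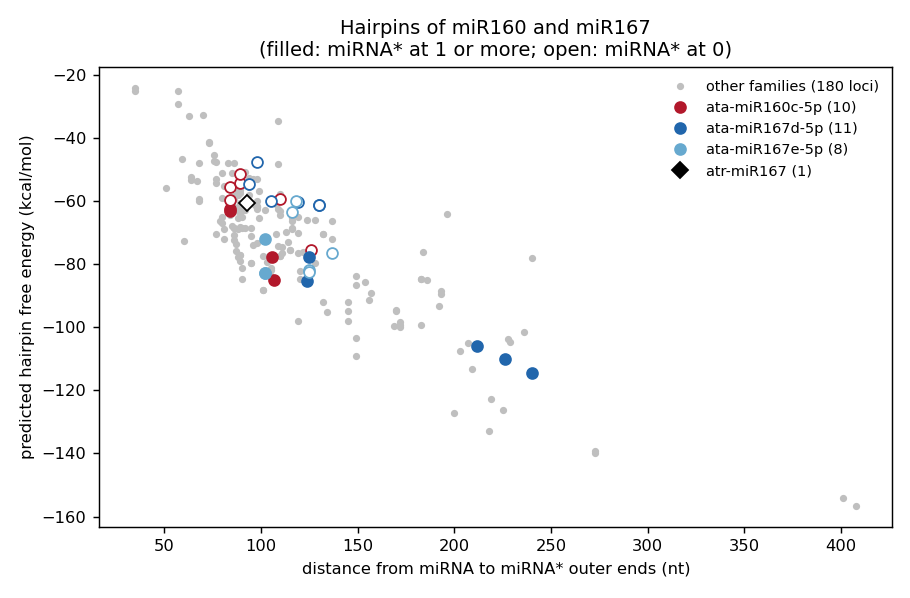
Predicted hairpin free energy (kcal/mol) against the distance between the outer ends of miRNA and miRNA* (nt) for the 30 loci, filled where the miRNA* is listed at 1 or more, with the 180 loci of other families in grey. The ata-miR167d-5p loci on chromosome 1 lie apart from the other members at 212 to 240 nt, and the miR160 loci lie between 84 and 126 nt.

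The loci were spread over both copies of the genome. The coordinates are those of the deposited table, on the Panicum virgatum v4.1 genome that the study's methods name. miR160 had 4 loci on K and 6 on N chromosomes, on chromosomes 1, 2, 4, 6 and 9. For miR167 there were 8 on K, 10 on N and 2 on unplaced scaffolds, on chromosomes 1, 2, 3, 4, 5 and 9. The atr-miR167 locus (Chr04N from 48286612 to 48286723) the ata-miR167d-5p locus on Chr09K (83695720 to 83695843) and the miR160 loci on Chr09N (5504967 to 5505094) and on Chr06N from 50950119 were among 13 of the 28 loci on chromosomes that had no listed locus with the same miRNA and miRNA* on the other copy. The rest of the 13 were the miR160 loci on Chr01K and Chr01N, the ata-miR167d-5p loci on Chr05K and Chr05N, and the ata-miR167e-5p loci on Chr01N, Chr05K and Chr09N. The miRNA and miRNA* of these ata-miR167e-5p loci are also listed on scaffold_22 or scaffold_20695, whose chromosome copy is not given. The same miRNA and miRNA* with exactly 1 locus on each copy of a chromosome occurred 3 times in each family. In 4 of these 6 pairs the K hairpin was predicted to be the more stable one, and in 2 the N hairpin was.

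Within these 6 pairs the spacing of the arms differed by at most 4 nt, while the energies differed by 0.522 to 7.46 kcal/mol. For miR160 the pair on chromosome 2 (Chr02K from 6186905 to 6187060 and Chr02N from 5309657 to 5309813) had -77.7 and -85.2 kcal/mol. The chromosome 4 pair had -63.1 and -62.6 kcal/mol, and the chromosome 6 pair -54.4 and -51.6 kcal/mol. For ata-miR167d-5p the energies were -47.8 and -54.7 kcal/mol on Chr02K and Chr02N, and -85.3 and -77.9 kcal/mol on Chr03K and Chr03N. The ata-miR167e-5p pair on chromosome 3 had -63.5 and -59.9 kcal/mol. On chromosome 1 the K and N loci of miR160 differed by 1 base of the miRNA* and had -59.8 and -55.7 kcal/mol, with 84 nt between outer ends in both. The spacing differed more at other loci. On Chr05K the ata-miR167d-5p hairpin, whose miRNA* is 1 base apart from that on Chr05N, had 119 nt and -60.3 kcal/mol, against 130 nt and -61.3 kcal/mol at both Chr05N loci. On chromosome 1, where ata-miR167d-5p has 2 K loci and 1 N locus with the same miRNA*, the K hairpins were 14 nt longer and 14 nt shorter than the N hairpin, with -114 and -106 against -110 kcal/mol.

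**Figure D5:**
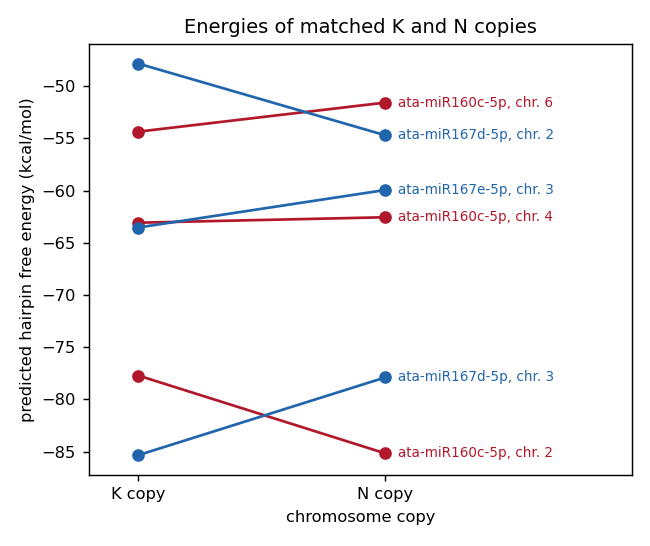
Predicted hairpin free energy (kcal/mol) of the K and the N copy in the 6 pairs with the same miRNA and miRNA*, lines joining the copies. The lines fall from K to N in 2 pairs and rise in 4, and the largest difference is 7.46 kcal/mol.

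Some loci lay close together. On Chr03K an ata-miR167e-5p locus (68713617 to 68713751) was followed on the same strand by an ata-miR167d-5p locus (68715372 to 68715545) after 1.62 kb. On Chr03N the same order was found on the opposite strand, with ata-miR167e-5p (51699102 to 51699238) upstream of ata-miR167d-5p (51687121 to 51687295) and a gap of 11.8 kb. These 4 were the only member loci within 20 kb of another listed locus. For most miR160 loci the nearest listed locus was not of miR167. It was a miR167 locus at Chr02K and Chr04N, whereas loci of miR397 at 227 kb on Chr01K, miR171 at 258 kb on Chr01N, miR172 at 1080 kb on Chr02N and miR390 at 2316 kb on Chr09N were nearer than miR167. Of the 6 miR160 loci with a miR167 locus on the same chromosome copy, 5 had their nearest one on the same strand, and it was upstream in all 5. The 5 include both Chr01K and Chr01N and both Chr02K and Chr02N, so they are not 5 separate arrangements. The gaps to miR167 were 121 kb on Chr04N, where the miR167 form was atr-miR167, 287 kb on Chr01K and 400.5 kb on Chr01N. On Chr02N and Chr02K they were 2367 and 4405 kb. The exception was Chr09N, where the strands were opposite and the gap was 3409 kb.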

How the data were processed

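Small RNAs of 8 switchgrass libraries, 1 per condition, were sequenced by the study. Per its methods and the submitters' processing notes, the authors trimmed adapters, mapped reads to genome v4.1 with Bowtie 0.12.7 and kept miRBase-matched sequences of 20 to 24 nt with a depth-normalized abundance of at least 10 and at most 20 genome hits, which limits the loci a sequence can have. Pairs came from modified miREAP, were filtered on strand and abundance bias, and were folded with UNAFold. The deposited abundances are a score whose unit is not named. Some fall below 10, such as 9 for miR444 and 4 for miR397, each of 1 sequence. Whether the score is the abundance that was filtered on is therefore not known. The deposited abundances carry no depth, so no interval can be given.

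Here, 349 of 494 structures had a miRNA at least as abundant as its miRNA*. Each locus was counted once, with its most stable structure, and a family was summed over distinct sequences. Duplexes were predicted with ViennaRNA 2.7.2. The limits of the methods allow precursors shorter than 300 nt with up to 5 mismatch positions and up to 3 bulged nt. All sequences of both families, the miRNA*, the families nearest in abundance and 3 auxin-linked families were named by rule. The selection was tested on simulated data. Members and lists were chosen with earlier results of these data known. Python 3.11.15, pandas 2.3.3 and matplotlib 3.10.9 were used. No test was run, for want of replicates.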

Additional observations from a re-analysis of the deposited data

How the results depend on the processing

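In all, 47 values were computed again with other choices. Of these, 35 stayed within 1.5 times a count or within the spread over loci, and 2 were chosen after seeing the data. A miRNA* of at least 1 left 4 miR160 loci (2 on K and 2 on N) and 8 miR167 loci (4 on K and 3 on N). The authors' miRNA candidate calls left 12 miR167 loci. Summed over loci, abundance was 1170 for miR160 and 53966 for miR167, by construction, since each locus repeats its sequence's value. Without flanks, an alternative chosen after seeing the data, the miR160 median length was 89 nt. With the least abundant miRNA*, the ata-miR167d-5p ratio was 4837. The difference of median energies, miR160 minus miR167, was 13.0 kcal/mol and reversed to -0.068 kcal/mol per nt of hairpin. Both differences varied with the miR167 sequence, as given above, and the cause was not tested. No paired analysis was possible because no condition was replicated and the table pools all libraries. The pooling and the unnamed unit limit every abundance.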

Other observations

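The ata-miR167d-5p loci on Chr05N, from 88625962 and from 88814172, each had -61.3 kcal/mol and 130 nt between outer ends, and lay 188 kb apart on the same strand. The ata-miR167e-5p loci on Chr09N from 10240558 and on scaffold_20695 shared their miRNA* and had 125 nt between outer ends, with energies of -81.9 and -82.6 kcal/mol. The ata-miR167e-5p pair that recurs on Chr01N (22696945 to 22697096) and Chr05K (108054713 to 108054864) had no listed partner on Chr01K or Chr05N. It is also listed on the unplaced scaffold_22, whose chromosome copy is not given, so a missing copy cannot be inferred.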
